A study of Mus musculus with 9 samples.

Results

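The 39 genes described here are genes of the G2 phase and of mitosis, chosen as a named list and found by their gene symbol in a table of expression values for 31167 mouse genes. All 39 were in the table. RNA was sequenced from mouse primary renal tubular epithelial cells of C57BL/6 kidney in 3 groups with 3 libraries each, called Sham, H/R and EGR1OV. H/R cells (hypoxia and reoxygenation, a culture model of ischemia and reperfusion) were kept for 6 h in glucose-free medium at 1.0% O2 and then for 18 h in complete medium under normal conditions. EGR1OV cells were transfected with a plasmid for overexpression of Egr1, a transcription factor, from a CMV promoter, which drives expression in most cell types, with the reagent EndoFectin Max at a confluence of approximately 50%. The sources differ on whether EGR1OV cells also underwent H/R. The study's legend for these samples lists H/R, the plasmid and no treatment for the H/R, EGR1OV and Sham groups respectively, naming no H/R for EGR1OV. Their own labels name only the plasmid, but the protocol text, which is the same for all 9 samples, describes both transfection and H/R, and the study's methods place transfection before H/R. A difference of EGR1OV from Sham or from H/R therefore cannot be assigned to the plasmid alone. No group with an empty plasmid was analysed here. The legend calls Sham cells untreated, and whether H/R cells received the reagent is not given in the sources used here, so Egr1 and transfection cannot be told apart. The number of animals behind a culture is not given either.

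A cell copies its DNA in S phase, prepares for division in G2 and separates its chromosomes in mitosis. Entry into mitosis is driven by the kinase Cdk1 bound to cyclins A and B, and exit by the anaphase-promoting complex, a ubiquitin ligase that marks cyclin B and other proteins for destruction. Transcripts of genes that act in these steps are low in resting and G1 cells and peak in G2 and mitosis, which is why genes such as Mki67 and Top2a are read as marks of cycling cells. Their periodic expression is carried by the MuvB complex with Mybl2 and Foxm1, which act through a promoter element called CHR (cell cycle genes homology region) and often through nearby CCAAT boxes bound by NF-Y, whereas S phase genes more often carry E2F sites. Mature tubule cells divide rarely, and surviving tubule cells re-enter the cycle after injury or in culture.

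A promoter entry of RefSeq (GRCm38.p6, from 250 bases before to 50 bases after the transcription start) was found for 34 of the 39 genes, which gave 36 promoters because Ect2 and Prc1 have a pair each. The CHR letters TTTGAA, searched on both strands, were in 75.0% of these promoters, against 17.9% of all 32851 promoters in the reference and 11.8% of those of genes tested. CCAAT, also on both strands, was in 77.8% of them, against 37.4% of all promoters, and 66.7% held both motifs, against 6.95%. Overlap between matches of the motifs was not checked. Among 106 promoters of the other mitosis genes described below, 38.7% held the CHR, 60.4% held CCAAT and 26.4% held both. CCAAT was in 55.9% of the promoters of S phase and licensing genes. Of 34 CHR matches in these 36 promoters, 76.5% began within 50 bases of the start, compared with 25.3% of 6737 matches in all promoters. Sites of Ect2 and Prc1 lie in both promoters of the gene and were counted in each. Stretches from 140 bases before to 30 bases after the start are shown 5′ to 3′ on the strand of the gene, with CHR matches (TTTGAA or TTCAAA) and CCAAT boxes (CCAAT or ATTGG) in capitals. The genes shown all have promoters that carry both elements. Of these, Cdk1, Ccnb2, Cdc20, Racgap1 and Top2a passed the test as lower after H/R, and Kif23, Ube2c and Hmmr did not.
Cdk1, chr10:69352883-69353052, minus strand: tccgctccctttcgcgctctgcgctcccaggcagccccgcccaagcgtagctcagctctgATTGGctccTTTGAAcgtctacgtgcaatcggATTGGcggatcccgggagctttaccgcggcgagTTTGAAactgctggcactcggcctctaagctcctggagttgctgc
Ccnb2, chr9:70421525-70421694, minus strand: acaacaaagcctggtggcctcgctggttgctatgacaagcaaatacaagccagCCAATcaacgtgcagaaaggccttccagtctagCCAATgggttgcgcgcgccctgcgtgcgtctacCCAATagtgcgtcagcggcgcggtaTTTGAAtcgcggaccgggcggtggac
Cdc20, chr4:118437314-118437483, minus strand: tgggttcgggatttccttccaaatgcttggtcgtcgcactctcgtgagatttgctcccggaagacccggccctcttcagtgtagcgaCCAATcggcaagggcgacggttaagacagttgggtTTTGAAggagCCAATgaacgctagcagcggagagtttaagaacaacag
Racgap1, chr15:99651627-99651796, minus strand: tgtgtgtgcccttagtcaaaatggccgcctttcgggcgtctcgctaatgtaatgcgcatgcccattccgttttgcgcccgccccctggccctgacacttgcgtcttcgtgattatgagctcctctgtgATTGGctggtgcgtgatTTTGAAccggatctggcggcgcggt
Top2a, chr11:99024160-99024329, minus strand: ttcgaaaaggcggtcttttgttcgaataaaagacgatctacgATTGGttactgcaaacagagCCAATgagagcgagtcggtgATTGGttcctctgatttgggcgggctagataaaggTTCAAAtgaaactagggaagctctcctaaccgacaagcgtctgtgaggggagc
Kif23, chr9:61946770-61946939, minus strand: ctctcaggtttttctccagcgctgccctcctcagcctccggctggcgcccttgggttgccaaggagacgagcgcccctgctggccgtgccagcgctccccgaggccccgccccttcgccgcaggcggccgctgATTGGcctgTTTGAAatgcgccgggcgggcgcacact
Ube2c, chr2:164769789-164769958, plus strand: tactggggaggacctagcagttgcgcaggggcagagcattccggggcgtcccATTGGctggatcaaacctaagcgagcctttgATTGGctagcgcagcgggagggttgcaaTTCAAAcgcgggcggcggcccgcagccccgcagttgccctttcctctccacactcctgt
Hmmr, chr11:40733408-40733577, minus strand: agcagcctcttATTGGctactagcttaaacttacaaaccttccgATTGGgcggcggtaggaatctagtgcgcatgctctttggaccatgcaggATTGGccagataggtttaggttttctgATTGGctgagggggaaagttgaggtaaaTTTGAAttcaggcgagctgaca

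Each of these 8 stretches held at least 1 CHR match and at least 1 CCAAT box, which was fixed by the choice of genes. Cdk1 held 2 of each. Both motifs were in 12 of 17 promoters of genes called lower after H/R and in 12 of 19 of those not called. Melk and Birc5, also called lower, had neither. Among the genes called lower after H/R, 14 of 17 promoters had a CHR match, and among those not called 13 of 19 did, so most promoters of either kind carried the element. E2F letters (TTTCCCGC, TTTGGCGC or TTTCGCGC) were in 1 of the 36 promoters, that of Cdk1, compared with 35.3% of 34 promoters of S phase and licensing genes and 1.84% of all promoters. The S phase promoters held the CHR letters in 11.8% of cases. The Egr1 letters GCGNGGGCG were in 5 of the 36 promoters (Ccnb1, Birc5, Mad2l1, Ndc80 and Mki67), or 13.9%, against 10.6% of the promoters of genes tested and 5.55% of all promoters. These matches are a description of the letters, and no binding was measured.

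**Figure D1:**
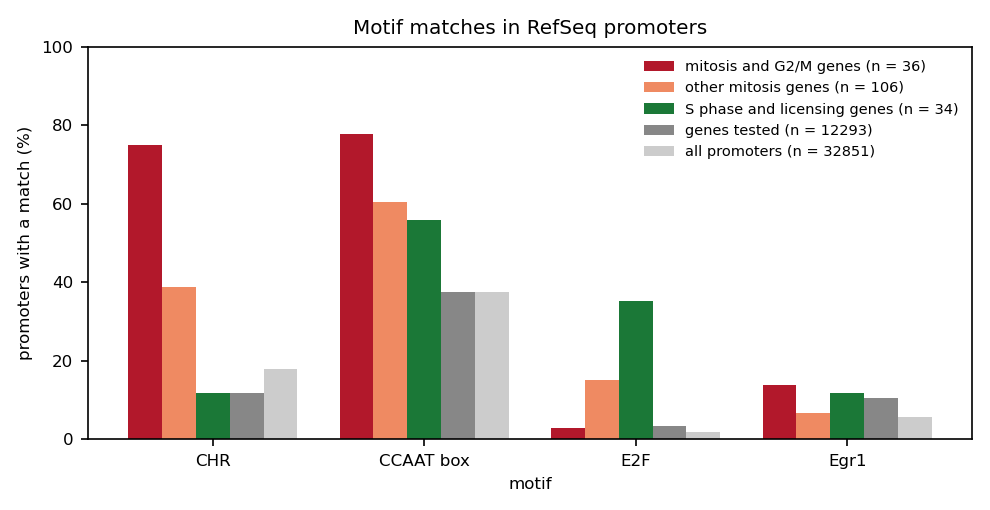
Share of RefSeq promoters (y axis, percent) that hold each motif on either strand (x axis), with a bar for each gene set and the number of promoters in brackets. The CHR letters were in 75.0% of promoters of mitosis and G2/M genes and in 11.8% of those of S phase and licensing genes, and the E2F letters in 2.78% and 35.3%.

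Expression was deposited as FPKM (fragments normalised to exon length and to library size), a unit per gene length that lets levels of different genes be set side by side. The length that fitted the values was that of all annotated exons of a gene, as with 1531 bases for Ccnb2 and 8390 for Mad2l1. The order of levels between genes depends on these lengths. The depth recovered from the steps between low values was 16183617 to 18384022 reads per library. Tests were made with limma on log2(FPKM + 1), a scale that understates the change of low genes, over the 13985 genes that averaged at least 0.5 FPKM, and adjusted over all of them. Genes are named as called where the adjusted p was under 0.05 and the change at least 1.2-fold (H/R against Sham) or 1.3-fold (comparisons with EGR1OV). The fold was taken on the log2(FPKM + 1) scale, so a ratio of mean FPKM can pass a threshold that this change does not. All 39 genes passed the filter. With 3 libraries against 3, an exact permutation test of a single gene cannot give a p below 0.1. Egr1 itself was at 6.40 ± 0.443 FPKM in Sham cells, 7.88 ± 0.599 after H/R and 42.6 ± 2.84 in EGR1OV cells (SD, n = 3 each), in the direction of the labels. Markers of tubule epithelium (9 of 9 tested) summed to 2010 to 2050 FPKM in Sham, 1860 to 1950 in H/R and 1310 to 1420 in EGR1OV, whereas the proximal tubule transporter Slc22a6 was listed at 0 in all 9 libraries and Slc34a1 at 0 or near it. Of 7 proximal tubule markers 2 passed the filter, and both were called lower in EGR1OV than in Sham. Lrp2 (megalin) was at 3.6 ± 0.0824 FPKM in Sham cells, 3.44 ± 0.0604 after H/R and 1.22 ± 0.0476 in EGR1OV cells (SD, n = 3 each), and Aqp1 at 1.3 ± 0.112, 1.16 ± 0.114 and 0.368 ± 0.11, with log2 changes in EGR1OV of -1.05 and -0.75 (limma adjusted p 1.01e-07 and 7.45e-05). The 7 markers summed to 5.44 to 5.53 FPKM in Sham, 4.87 to 5.29 in H/R and 1.94 to 2.21 in EGR1OV, and their part in the values of the 39 genes was not tested.

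After H/R, genes of every role but the mitotic kinesins and the spindle microtubule binders were called lower. Of the 39 genes, 18 were called lower and none higher, where 2.65% of all genes tested were called lower and 1.6% higher. The called genes were Cdk1, its partners Ccna2 and Ccnb2, the kinases Plk1, Melk and Aurkb, the survivin gene Birc5, the checkpoint genes Bub1 and Bub1b, Cdc20, Cdca3, the kinetochore genes Ndc80 and Spc25, the cytokinesis genes Anln, Ect2 and Racgap1, and Top2a and Mki67. The median log2 change over all 39 genes was -0.24 (all genes tested -0.03), with a range of -0.38 to 0.02 and a median H/R level of 0.801 of Sham. With no fold threshold 23 genes were lower at an adjusted p under 0.05 (all genes 7.54%), and the added 5 were Foxm1, Cdca8, Mad2l1, Kif20a and Prc1. In 29 of the 39 genes every Sham library lay above every H/R library, as it did in 21.8% of all genes tested. In whole-culture RNA, fewer cells in G2 or mitosis and less of these transcripts per cell cannot be told apart. The count of 18 was 11 without Sham replicate 3, the Sham library in which 32 of the 39 genes lay above their group mean, while the median without it was -0.23.

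In EGR1OV cells none of the 39 genes was called against Sham in either direction by limma, where 9.87% of all genes tested were called higher and 6.51% lower, and the count was also 0 with voom on recovered reads. At an unadjusted p under 0.05 there were 8 genes, 3 higher and 5 lower, against 52.5% of all genes tested. The median log2 change was 0.00 (0.02 over all genes tested), a value whose sign turned to -0.03 under median-ratio scaling and -0.09 under quantile normalization. With no fold threshold the kinase gene Plk1 and the kinesin gene Kif2c were higher at an adjusted p under 0.05 (all genes 26.1%), and Anln, Ect2, Mad2l1 and Nuf2 were lower (all genes 19.8%). Every EGR1OV library lay above every Sham library in 6 genes (all genes 31.0%) and below in 8 (all genes 24.6%).

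EGR1OV and H/R cells were also compared directly. Of the 39 genes, 9 were called higher in EGR1OV and none lower, where 11.9% of all genes tested were called higher. These were Cdk1, Ccnb2, Plk1, Melk, Aurkb, Bub1b, Ndc80, Spc25 and Kif2c. Of the 9, 8 were also called lower in H/R against Sham and Kif2c was not. That comparison uses the same H/R libraries. With no fold threshold 21 genes were higher (all genes 32.0%), and in 26 every EGR1OV library lay above every H/R library (all genes 36.6%). The median log2 difference was 0.22 (all genes 0.06). The count was sensitive to scaling, with 5 genes called on median-ratio scaling and 1, Plk1, on quantile normalization, while the median kept its sign at 0.18 and 0.14. Of all genes called in this comparison 63.2% were higher on the deposited scale, 51.9% with median-ratio scaling and 42.5% with quantile normalization. The same shares were 37.7%, 54.9% and 56.5% for H/R against Sham and 60.3%, 54.1% and 45.9% for EGR1OV against Sham.

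**Figure D2:**
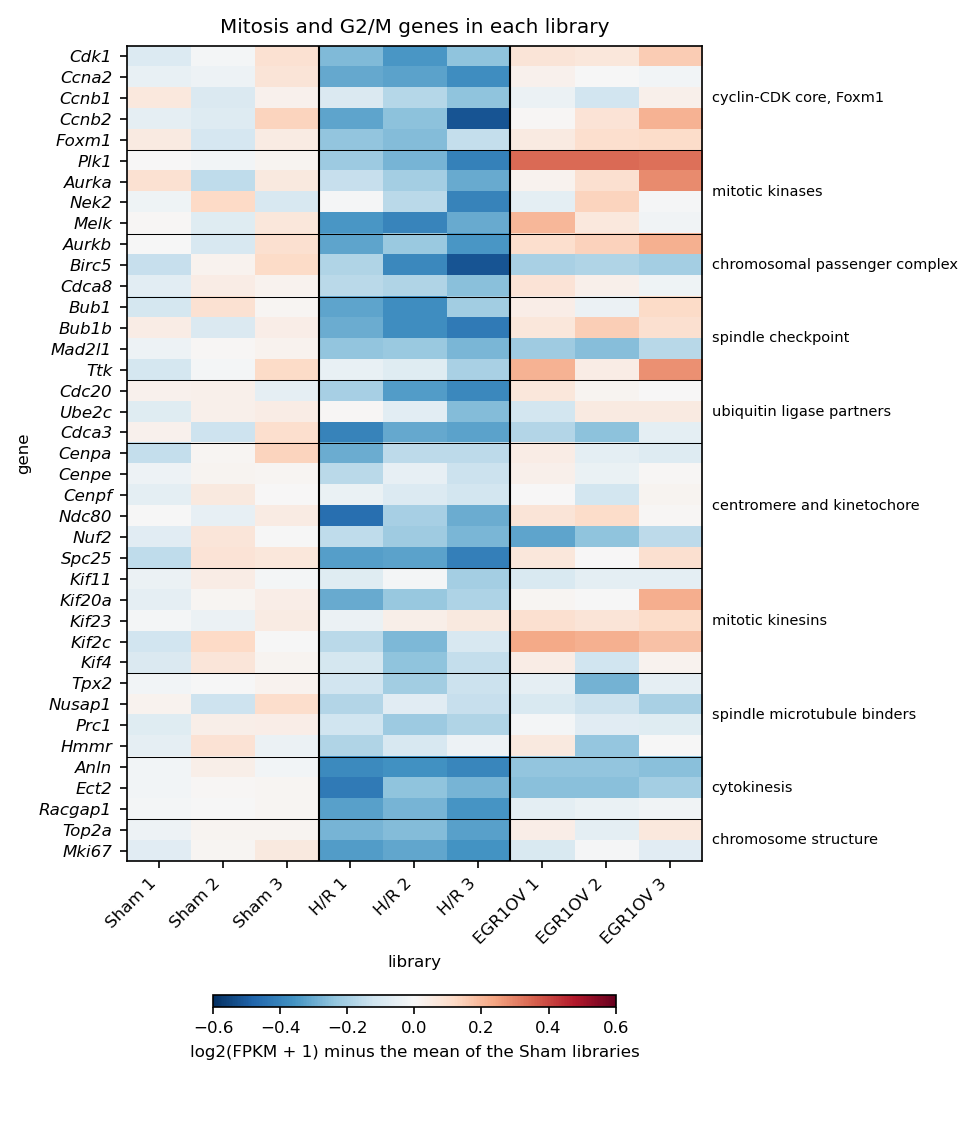
Colour map of log2(FPKM + 1) minus the mean of the 3 Sham libraries for each of the 39 genes (rows, grouped by role) in each of the 9 libraries (columns), as deposited. The H/R columns are below the Sham mean (blue) in 38 genes each, while EGR1OV columns lie on both sides of it, with Plk1 and Kif2c above and Anln, Ect2, Mad2l1 and Nuf2 below.

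Cdk1, with its cyclins, triggers entry into mitosis. The gene Cdk1 (ENSMUSG00000019942, chromosome 10, 69335146 to 69352938, minus strand) was at 6.99, 7.38 and 8.02 FPKM in Sham, 6.04, 5.64 and 6.14 in H/R, and 7.93, 7.85 and 8.38 in EGR1OV. All H/R values lay below all others, and Sham and EGR1OV overlapped. The log2 change was -0.29 after H/R (SE 0.053, limma adjusted p 0.0111) and 0.10 in EGR1OV (limma adjusted p 0.158), and EGR1OV exceeded H/R by 0.38 (limma adjusted p 0.000254), a call lost under both scalings and without H/R replicate 2 or EGR1OV replicate 3. Cdk1 fell short of the 1.2-fold threshold after H/R under either other scaling and without Sham replicate 3 or H/R replicate 2, at log2 changes of -0.24 to -0.26. Ccna2, the A-type cyclin of S phase and G2, was at 8.16, 8.25 and 8.99 FPKM in Sham, 6.64, 6.58 and 6.31 in H/R, and 8.64, 8.44 and 8.34 in EGR1OV. Its EGR1OV libraries lay within the range of Sham and its H/R libraries below both, with a log2 change after H/R of -0.33 (SE 0.042, limma adjusted p 0.00235).

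The B-type cyclins did not move to the same extent. Ccnb2 was at 9.02, 8.84 and 10.4 FPKM in Sham, 7.35, 7.78 and 6.26 in H/R, and 9.44, 10.0 and 11.0 in EGR1OV. It was called lower after H/R (log2 change -0.36, SE 0.086, limma adjusted p 0.0292) and higher in EGR1OV than in H/R (0.46, limma adjusted p 0.0017), with its H/R libraries apart from the other 6. Its call after H/R was lost under 7 of 19 alternatives, among them leaving out Sham replicate 1 or 3 or H/R replicate 1 or 3, at adjusted p values up to 0.0866. Ccnb1 was at 8.68, 7.73 and 8.42 FPKM in Sham, 7.72, 7.24 and 6.85 in H/R, and 8.04, 7.57 and 8.47 in EGR1OV. The highest H/R value of Ccnb1 nearly reached the lowest Sham value, and its log2 changes were -0.17 after H/R (SE 0.058, limma adjusted p 0.1) and -0.04 in EGR1OV (limma adjusted p 0.622). The difference between the changes of these cyclins was not tested. Foxm1, the transcription factor that switches on many G2/M genes, was at 5.95, 5.26 and 5.93 FPKM in Sham, 4.69, 4.60 and 5.07 in H/R, and 5.96, 6.19 and 6.24 in EGR1OV. Its groups did not overlap, in the order H/R, Sham, EGR1OV, but its fall after H/R (-0.21, SE 0.053, limma adjusted p 0.0335) was short of 1.2-fold.

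Plk1, a kinase needed for centrosome maturation and spindle assembly, was the gene with the widest separation. It was at 12.3, 12.1 and 12.4 FPKM in Sham, 10.4, 9.92 and 9.02 in H/R, and 15.8, 15.8 and 15.7 in EGR1OV. The 3 groups were fully apart, and the spread within Sham and EGR1OV was small. The log2 change was -0.30 after H/R (SE 0.045, limma adjusted p 0.0045) and 0.34 in EGR1OV (SE 0.045, limma adjusted p 0.00023), the latter a 1.29-fold ratio of means just under the fold threshold. The H/R call was lost without H/R replicate 3, at a log2 change of -0.25. EGR1OV exceeded H/R by 0.64 (limma adjusted p 2.89e-06), and this difference stayed past the threshold under all 19 alternatives, with a range of 0.51 to 0.70. Melk, a kinase gene that is highly expressed in dividing cells, was at 4.19, 3.92 and 4.42 FPKM in Sham, 3.06, 2.93 and 3.19 in H/R, and 4.94, 4.41 and 4.10 in EGR1OV. The H/R libraries of Melk lay below all others (log2 change -0.35, SE 0.065, limma adjusted p 0.0111) and its ratio to Sham, 0.732, was the smallest of the 39 genes. Its call in EGR1OV against H/R (0.43) was lost with quantile normalization and without EGR1OV replicate 1. Aurka, the centrosomal Aurora kinase, was at 9.97, 8.25 and 9.72 FPKM in Sham, 8.35, 7.93 and 7.33 in H/R, and 9.42, 10.0 and 11.5 in EGR1OV, so Sham overlapped both other groups. Its difference of EGR1OV from H/R was 0.35 (SE 0.084, limma adjusted p 0.00706), short of the 1.3-fold threshold on the log2(FPKM + 1) scale. The ratio of means of Aurka in that comparison was 1.31. Nek2, a kinase that acts in centrosome separation, had the lowest level of the list, at 0.612 to 1.33 FPKM over the 9 libraries, and passed no threshold.

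The chromosomal passenger complex corrects faulty attachments of chromosomes to the spindle, with Aurkb as its kinase and Birc5 (survivin) and Cdca8 (borealin) as subunits. Aurkb was at 4.21, 3.89 and 4.59 FPKM in Sham, 3.19, 3.47 and 3.10 in H/R, and 4.60, 4.74 and 5.06 in EGR1OV. Its groups were in the order H/R, Sham, EGR1OV with no overlap, although the highest Sham library lay next to the lowest EGR1OV library. Aurkb changed by -0.30 after H/R (SE 0.061, limma adjusted p 0.0167) and exceeded H/R by 0.45 in EGR1OV (limma adjusted p 0.000253). Its call after H/R was lost under 4 of 18 alternatives (quantile normalization and without Sham replicate 1, Sham replicate 3 or H/R replicate 3), at adjusted p values up to 0.0598. Birc5 was at 4.63, 5.29 and 5.70 FPKM in Sham, 4.47, 3.74 and 3.33 in H/R, and 4.41, 4.46 and 4.38 in EGR1OV. The values of both treated groups lay below Sham, with log2 changes of -0.36 after H/R (SE 0.088, limma adjusted p 0.0328) and -0.19 in EGR1OV (limma adjusted p 0.106). The H/R call of Birc5 was lost under 9 of 18 alternatives, among them leaving out Sham replicate 2 or 3 or H/R replicate 2 or 3, at adjusted p values up to 0.1. Cdca8 was lower after H/R by a change short of the threshold (-0.20, SE 0.05, limma adjusted p 0.037). Incenp, the scaffold of the complex and not on the list of 39, was called lower after H/R, at 10.0 ± 0.468 FPKM in Sham and 7.77 ± 0.402 in H/R (SD, n = 3 each), and it was at 13.1 ± 0.259 in EGR1OV.

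The spindle checkpoint holds anaphase until every kinetochore is attached. Bub1b (BubR1, which restrains the anaphase-promoting complex) was at 5.83, 5.22 and 5.81 FPKM in Sham, 4.38, 4.11 and 3.93 in H/R, and 5.94, 6.33 and 6.07 in EGR1OV. Its groups did not overlap, and the H/R libraries stood well below the rest. The log2 change after H/R was -0.36 (SE 0.053, limma adjusted p 0.00397) and EGR1OV exceeded H/R by 0.47 (limma adjusted p 6.98e-05). Bub1, a checkpoint kinase, was also called lower after H/R (-0.30, SE 0.067, limma adjusted p 0.0227), a call lost under 6 of 18 alternatives, among them leaving out Sham replicate 2 or 3 or H/R replicate 1 or 2. Mad2l1 (Mad2) followed another pattern, at 2.95, 3.05 and 3.09 FPKM in Sham, 2.42, 2.45 and 2.33 in H/R, and 2.48, 2.38 and 2.59 in EGR1OV. All 6 treated libraries lay below all Sham libraries and overlapped each other. Its log2 changes were -0.25 after H/R (SE 0.047, limma adjusted p 0.0123) and -0.21 in EGR1OV (SE 0.047, limma adjusted p 0.00525), both short of the fold thresholds on the log2(FPKM + 1) scale. The ratios of means to Sham were 0.791 and 0.82. In Mad2l1 EGR1OV differed from H/R by 0.04 (limma adjusted p 0.553). Ttk (Mps1, the kinase that starts checkpoint signalling) was at 1.2, 1.35 and 1.56 FPKM in Sham, 1.29, 1.25 and 1.07 in H/R, and 1.73, 1.44 and 1.86 in EGR1OV. Sham overlapped both treated groups in Ttk.

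Cdc20, which activates the anaphase-promoting complex, had the highest level of the 39 genes. It was at 24.0, 24.1 and 22.7 FPKM in Sham, 20.4, 18.5 and 17.8 in H/R, and 24.8, 23.9 and 23.6 in EGR1OV. H/R lay below both other groups, which overlapped, with a log2 change of -0.31 (SE 0.049, limma adjusted p 0.00606). Cdca3, a ubiquitin ligase component that promotes mitotic entry, was called lower after H/R as well (-0.34, SE 0.069, limma adjusted p 0.015), a call lost without Sham replicate 1 or 3. The partner enzyme Ube2c, which supplies ubiquitin to the same complex, was not called. Ube2c was at 10.8, 11.7 and 11.8 FPKM in Sham, 11.5, 10.9 and 9.39 in H/R, and 10.5, 11.9 and 11.9 in EGR1OV, with overlapping groups and a log2 change after H/R of -0.10 (SE 0.074, limma adjusted p 0.408).

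**Figure D3:**
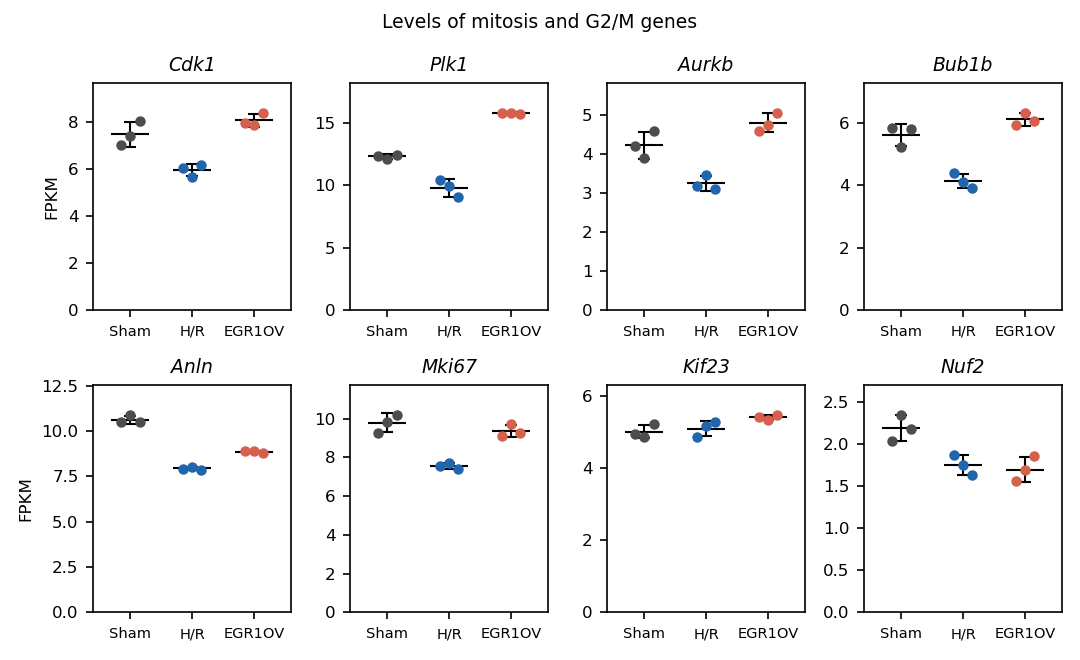
FPKM (y axis, from 0) of 8 genes in the 3 Sham, 3 H/R and 3 EGR1OV libraries (x axis), with a point for each library and a black bar for the mean and SD. In Plk1, Aurkb and Bub1b the groups do not overlap, in Cdk1 and Mki67 the H/R libraries lie apart, in Anln and Nuf2 both treated groups lie below Sham, and in Kif23 Sham and H/R overlap.

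Kinetochores join the centromere to spindle microtubules, and the Ndc80 complex is their microtubule-binding part. Of its members on the list, Ndc80 was at 5.36, 5.16 and 5.59 FPKM in Sham, 3.65, 4.55 and 4.18 in H/R, and 5.72, 5.87 and 5.40 in EGR1OV. Spc25 was at 4.01, 4.91 and 4.85 FPKM in Sham, 3.43, 3.46 and 3.20 in H/R, and 4.84, 4.59 and 4.96 in EGR1OV. Both were lower in every H/R library than in all others, with log2 changes of -0.32 (SE 0.065, limma adjusted p 0.0167) and -0.35 (SE 0.068, limma adjusted p 0.0125). The Ndc80 call after H/R was lost under 3 of 19 alternatives (without Sham replicate 1, Sham replicate 3 or H/R replicate 1), at adjusted p values up to 0.0612. Its call in EGR1OV against H/R was lost under 5 of 19, both scalings and the omission of H/R replicate 1, EGR1OV replicate 1 or EGR1OV replicate 2. Nuf2, the direct partner of Ndc80, was at 2.04, 2.35 and 2.18 FPKM in Sham, 1.87, 1.75 and 1.64 in H/R, and 1.56, 1.70 and 1.86 in EGR1OV. Both treated groups lay below Sham in Nuf2 and overlapped each other, with log2 changes of -0.21 after H/R (SE 0.066, limma adjusted p 0.0706) and -0.24 in EGR1OV (SE 0.066, limma adjusted p 0.0154). So within 1 complex EGR1OV exceeded H/R by 0.38 for Ndc80 and 0.41 for Spc25 and differed by -0.03 for Nuf2 (limma adjusted p 0.00101, 0.00081 and 0.769). The differences between these genes were not tested. The centromeric histone Cenpa, the motor Cenpe and the large kinetochore protein Cenpf passed no threshold in any comparison, with log2 changes after H/R of -0.20, -0.11 and -0.08.

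Of the 5 mitotic kinesins and the 4 proteins that bundle or nucleate spindle microtubules, none was called after H/R. Roles were not tested against each other. The median log2 change after H/R was -0.16 for the kinesins and -0.14 for the microtubule binders, and each stayed below 0 under both other scalings. Kif23, a kinesin of the central spindle, was at 4.96, 4.86 and 5.22 FPKM in Sham, 4.86, 5.16 and 5.27 in H/R, and 5.42, 5.34 and 5.48 in EGR1OV. It was the only gene of the 39 above 0 after H/R (0.02, SE 0.043, limma adjusted p 0.812), and its Sham and H/R libraries overlapped. Kif2c, which depolymerizes microtubules at centromeres, was at 3.69, 4.51 and 4.07 FPKM in Sham, 3.54, 3.22 and 3.75 in H/R, and 4.94, 4.89 and 4.73 in EGR1OV. Sham and H/R overlapped in Kif2c and EGR1OV lay above both, by 0.20 over Sham (SE 0.067, limma adjusted p 0.0318) and 0.38 over H/R (limma adjusted p 0.00115). The latter call was lost under 6 of 18 alternatives, among them leaving out H/R replicate 2, EGR1OV replicate 1 or EGR1OV replicate 2, with differences down to 0.27. Kif11, the motor that pushes spindle poles apart, had a log2 change after H/R of -0.10 (SE 0.055, limma adjusted p 0.285). Kif20a, which acts in cytokinesis, was lower after H/R at an adjusted p of 0.0397 in limma but short of 1.2-fold on the log2(FPKM + 1) scale (-0.24). Its ratio of means was 0.831.

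Among the microtubule binders, Tpx2, which activates Aurka on the spindle and was second in level, was at 19.0, 19.2 and 19.5 FPKM in Sham, 17.7, 16.5 and 17.5 in H/R, and 18.5, 15.6 and 18.5 in EGR1OV. Both treated groups lay below Sham without passing the test (limma adjusted p 0.138 and 0.103). Nusap1 was at 3.63, 3.19 and 3.91 FPKM in Sham, 3.04, 3.36 and 3.15 in H/R, and 3.29, 3.18 and 2.99 in EGR1OV. Its groups overlapped, with log2 changes of -0.13 and -0.14 against Sham (limma adjusted p 0.249 and 0.118). Prc1, which bundles microtubules between the separating chromosomes, was lower after H/R by -0.17 (SE 0.048, limma adjusted p 0.0489), and Hmmr passed no threshold.

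All 3 cytokinesis genes were called lower after H/R, and none was called in EGR1OV against Sham. Anln, the scaffold protein anillin of the contractile ring, was at 10.5, 10.9 and 10.5 FPKM in Sham, 7.94, 8.04 and 7.86 in H/R, and 8.88, 8.88 and 8.79 in EGR1OV. Its groups were apart in the order H/R, EGR1OV, Sham. The log2 change was -0.38 after H/R (SE 0.031, limma adjusted p 0.00024), the lowest of the 39 genes on this scale though 5 genes had a smaller ratio to Sham than its 0.748, and -0.24 in EGR1OV (SE 0.031, limma adjusted p 0.000185). Ect2, the exchange factor that switches on RhoA at the cleavage plane, was at 7.07, 7.19 and 7.21 FPKM in Sham, 5.07, 5.89 and 5.72 in H/R, and 5.86, 5.86 and 6.07 in EGR1OV. Both treated groups of Ect2 lay below Sham, with log2 changes of -0.32 (SE 0.05, limma adjusted p 0.00575) and -0.24 (SE 0.05, limma adjusted p 0.00386), and EGR1OV differed from H/R by 0.08 (limma adjusted p 0.205). Racgap1, which works with Kif23 and recruits Ect2, was at 5.92, 5.96 and 6.04 FPKM in Sham, 4.57, 4.75 and 4.46 in H/R, and 5.69, 5.79 and 5.88 in EGR1OV. Its EGR1OV libraries lay just below Sham and well above H/R, with log2 changes of -0.04 against Sham (SE 0.037, limma adjusted p 0.424) and 0.28 against H/R (limma adjusted p 0.000196). After H/R Racgap1 changed by -0.32 (SE 0.037, limma adjusted p 0.00154), whereas its partner Kif23 did not pass the test. The Ect2 call after H/R was lost without H/R replicate 1. The differences between these genes were not tested.

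The genes most used as marks of dividing cells were both called lower after H/R. Mki67, the gene of the Ki-67 antigen, was at 9.28, 9.85 and 10.2 FPKM in Sham, 7.54, 7.69 and 7.40 in H/R, and 9.12, 9.72 and 9.28 in EGR1OV. Top2a, the topoisomerase that untangles sister chromosomes, was at 10.6, 11.0 and 11.0 FPKM in Sham, 8.79, 8.90 and 8.46 in H/R, and 11.2, 10.4 and 11.4 in EGR1OV. In both genes the H/R libraries lay below all others, and EGR1OV overlapped Sham. Mki67 changed by -0.34 after H/R (SE 0.042, limma adjusted p 0.0023) and -0.06 in EGR1OV (limma adjusted p 0.309). Top2a changed by -0.29 (SE 0.041, limma adjusted p 0.00341) and 0.02 (limma adjusted p 0.774). The Top2a call after H/R was lost with median-ratio scaling, at a log2 change of -0.26.

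**Figure D4:**
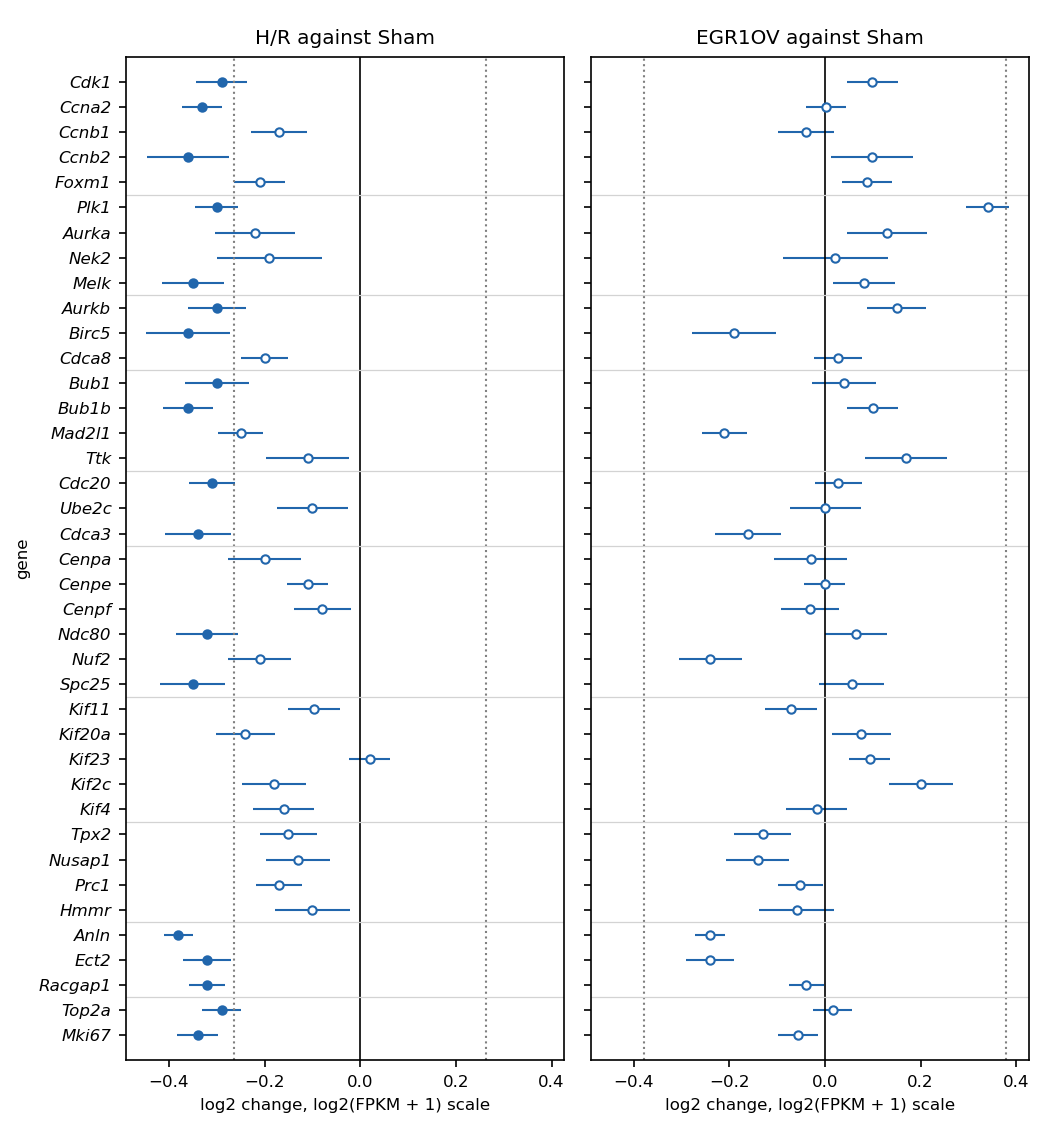
Log2 change on the log2(FPKM + 1) scale (x axis) of each of the 39 genes (y axis, in order of role) for H/R against Sham (left) and EGR1OV against Sham (right), as points with the SE as bars, filled where the gene was called and with dotted lines at the fold thresholds. All but Kif23 lie below 0 after H/R, and 18 are filled, whereas in EGR1OV no point is filled and 21 lie above 0 and 18 below as deposited.

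Levels in Sham ran from about 24 FPKM for Cdc20, through Tpx2, Plk1, Ube2c and Top2a, down to Ttk and Nek2 at between 1 and 2 FPKM. Many neighbours in this order did not differ beyond their spread, as with Ube2c at 10.8 to 11.8 and Top2a at 10.6 to 11.0 FPKM. The median coefficient of variation over the 39 genes was 6.06% for Sham, 5.46% for H/R and 4.50% for EGR1OV libraries (n = 3 each). Genes with fewer reads, which were not always those of lower FPKM, tended to be measured with more error. The 20 genes with the most reads had a median SE of the H/R change of 0.049 and 10 calls, and the 19 with the fewest, down to a mean of 80 reads, had 0.067 and 8 calls. Summed over the 39 genes, the level was 257 to 270 FPKM in Sham, 211 to 220 in H/R and 259 to 271 in EGR1OV.

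Other genes of mitosis, from 5 lists with 107 genes tested, are given beside the 39. After H/R 17 of the 107 were called lower and none higher (all genes 2.65% and 1.6%), with a median log2 change of -0.14. Members with the largest falls were Pbk, a mitotic kinase (8.37 ± 0.442 FPKM in Sham and 5.93 ± 0.668 in H/R, log2 change -0.44, limma adjusted p 0.00662), and the kinetochore gene Ska3 (-0.40, limma adjusted p 0.0488). In condensin, which compacts chromosomes, Ncapg2 (-0.35), Ncaph (-0.34) and Ncapd2 (-0.31) were called lower (limma adjusted p 0.00702, 0.00249 and 0.00235). Of the DREAM and MuvB genes, Mybl2, which works with MuvB at CHR elements, was at 2.63 ± 0.11 FPKM in Sham cells, 1.83 ± 0.12 after H/R and 3.55 ± 0.258 in EGR1OV cells (SD, n = 3 each), called lower after H/R (-0.36, limma adjusted p 0.00741) and higher in EGR1OV than in H/R (0.68, limma adjusted p 1.39e-05). Lin54, the MuvB subunit that reads the CHR, was also called lower after H/R (-0.28, limma adjusted p 0.019). Of the 14 DREAM and MuvB genes tested, only these 2 were called after H/R. The median of that list was -0.07 (all genes -0.03), with 11 genes below 0 and 3 above.

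In EGR1OV against Sham, 4 of these 107 genes were called, 3 higher and 1 lower, where 9.87% of all genes tested were called higher and 6.51% lower. Pttg1, the gene of securin, which holds separase inactive until anaphase, rose from 6.33 ± 0.0556 to 16.1 ± 1.38 FPKM (SD, n = 3 each), a log2 change of 1.22 (SE 0.062, limma adjusted p 3.33e-07). It was at 6.32 ± 0.433 FPKM in H/R. Cks1b, a Cdk1 binding partner, fell from 48.0 ± 2.04 to 36.2 ± 2.06 FPKM (log2 change -0.40, limma adjusted p 0.000116). Troap (0.39, limma adjusted p 0.011) and the MuvB gene Lin37 (0.41, limma adjusted p 0.00317) were called higher. Against H/R, 18 of the 107 were called higher in EGR1OV and none lower (all genes 11.9% and 6.94%). They were led by Pttg1 (1.23), Incenp (0.68) and Mybl2 (0.68), all with a limma adjusted p of at most 1.39e-05. The counts were 11 and 1 with median-ratio scaling and 8 and 1 with quantile normalization. Of all genes tested, 18.3% and 18.7% were called in either direction under these scalings.

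S phase and licensing genes, 35 of them tested, lie upstream in the cycle and are given for comparison. After H/R 24 were called lower and none higher (all genes 2.65% and 1.6%), with a median log2 change of -0.33, led by Mcm5 (-0.58), E2f1 (-0.56) and Mcm2 (-0.49), with a limma adjusted p of at most 0.00664. Without Sham replicate 3 the count was 17. In EGR1OV against Sham 1 gene, the helicase subunit Mcm6, was called higher (0.69, limma adjusted p 8.1e-07) and none lower (all genes 9.87% and 6.51%). The list median of 0.07 turned to -0.01 under quantile normalization. In EGR1OV against H/R 18 of the 35 were called higher and none lower (all genes 11.9% and 6.94%), with a median log2 difference of 0.39. With median-ratio scaling 13 were called higher, and with quantile normalization 11, at medians of 0.32 and 0.28. By library, the median difference of the 39 mitosis and G2/M genes from the Sham mean was -0.22, -0.23 and -0.27 in the H/R libraries, and that of the S phase genes -0.30, -0.33 and -0.36. In EGR1OV it was 0.03, -0.01 and 0.01 for the mitosis and G2/M genes and 0.08, 0.03 and 0.09 for the S phase genes. The median of all genes was -0.03 in each H/R library.

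**Figure D5:**
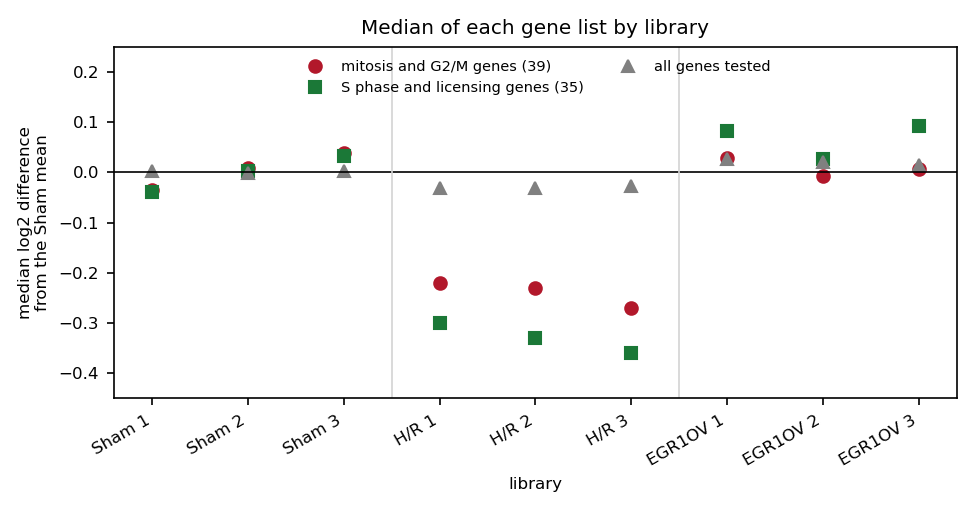
Median over each gene list of the log2(FPKM + 1) difference from the Sham mean (y axis) in each library (x axis), as deposited. The 39 mitosis and G2/M genes (circles) lie at -0.22 to -0.27 and the 35 S phase and licensing genes (squares) at -0.30 to -0.36 in the H/R libraries, while all genes tested (triangles) stay near 0.

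Other features of the libraries moved with the groups. Leukocyte markers, of which 8 of 12 were tested, summed to 148 to 152 FPKM in Sham, 124 to 134 in H/R and 23.6 to 28.9 in EGR1OV, fibroblast markers (4 of 7 tested) to 32.8 to 34.5, 39.3 to 40.6 and 37.9 to 42.9, and endothelial markers (5 of 6 tested) to 9.74 to 10.3, 10.1 to 10.3 and 7.04 to 7.61. Their part in the values of the mitosis and G2/M genes was not tested. The noncoding RNA Gm23935 was at 4190, 1700 and 19600 FPKM in Sham, 3800, 21700 and 19500 in H/R and 1580, 1490 and 9380 in EGR1OV, and with its log2 level as a covariate 18 of the 39 genes were called lower after H/R, 0 in EGR1OV and 10 higher in EGR1OV than in H/R. Markers of distal nephron and collecting duct (0 of 6 tested) summed to 0.0556 to 0.701 FPKM over all libraries.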

How the data were processed

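FPKM values were deposited by the authors in 1 table, with a row per gene, a column per library and no pooling. The submitters' processing notes name Bowtie2 2.2.3, HISAT2 2.1.0, TopHat2 and the build mm9, with no order or role, and the counter is not given in the sources used here. Of gene positions in the table, 94.7% equal those of GENCODE M21 on GRCm38, so positions are given as in the table and are read as GRCm38.

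Groups and replicate numbers come from the sample titles. Values were taken as log2(FPKM + 1), genes averaging under 0.5 FPKM were left out, and all 9 libraries entered a single limma fit (3.58.1, R 4.3.3, with trend, two-sided, Benjamini-Hochberg over 13985 genes), tested on simulated data. Depth was recovered from FPKM steps with GENCODE exon lengths, and 94.0% of 162962 values were whole within 0.02 reads. No replicate pair agreed within sampling noise (chi-square per degree of freedom at least 2.03). Nothing says that replicates came from separate animals, so p-values measure the spread between these samples. Fold thresholds against Sham follow the study, and the threshold between EGR1OV and H/R was set here.

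The 39 genes, the other lists and the motifs were chosen with earlier results of these data known. Library values are given for Cdk1, Ccnb1, Plk1, Aurkb, Mki67, Top2a, Foxm1 and the 5 genes with the largest rise and fall per comparison, and for a few more (Ccna2, Cdc20, Ndc80, Racgap1, Tpx2 and Ube2c) chosen after their values were seen. Of each other list the 3 called genes with the largest change may be named, and the Incenp value after H/R, outside this rule, was added after it was seen. The alternatives tried were a pseudocount of 0.1, no filter, a filter at 5 FPKM on average, median-ratio scaling, quantile normalization, a replicate block, no trend, only the groups compared, no fold threshold, voom on recovered reads, each library left out, and, chosen after seeing the data, Gm23935 as a covariate. Promoter motifs were counted with Python 3.11.15.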

Additional observations from a re-analysis of the deposited data

Results flagged for a closer look

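In 4 of the 39 genes every H/R library lay below and every EGR1OV library above every Sham library, as in 6.31% of all genes tested. The log2 difference of EGR1OV and H/R was 0.64 for Plk1, 0.47 for Bub1b, 0.45 for Aurkb and 0.30 for Foxm1. These differences follow from how the 4 genes were picked and are given as a description, and movement in opposite directions from Sham was not tested as such. Against Sham, the changes in EGR1OV were 0.34 for Plk1 (limma adjusted p 0.00023), 0.15 for Aurkb (0.0734), 0.10 for Bub1b (0.136) and 0.09 for Foxm1 (0.205), so that of the 4 Plk1 alone had an adjusted p under 0.05 on that side.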

How the results depend on the processing

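For H/R against Sham, 18 genes were called lower, and the median log2 change of the 39 genes, -0.24, became -0.31 with a pseudocount of 0.1, -0.29 over the 21 genes that averaged 5 FPKM or more, -0.20 with quantile normalization and -0.33 with voom. With a single library left out the count ran from 11 (without Sham replicate 3) to 18. For EGR1OV against Sham the median moved from 0.002 to -0.028 (median-ratio scaling) and -0.093 (quantile normalization), and to -0.015 without Sham replicate 1 and -0.0036 without EGR1OV replicate 3, and the count of 0 rose to 6 with no fold threshold. For EGR1OV against H/R the count of 9 became 5 with a filter at 5 FPKM, 5 with median-ratio scaling, 1 with quantile normalization, 14 with voom and 21 with no fold threshold. Its median of 0.22 became 0.31, 0.30, 0.18, 0.14, 0.31 and 0.27 with a pseudocount of 0.1, a filter at 5 FPKM, median-ratio scaling, quantile normalization, voom and the Gm23935 covariate, and ran from 0.20 to 0.28 (without H/R replicate 1) with a library left out. The filter at 5 FPKM tested fewer genes, and the cause of the other moves was not tested. With voom 1001 of all genes were called after H/R, against 594, and with the filter at 5 FPKM 372, while that filter gave 1315 calls in EGR1OV against Sham and 1520 in EGR1OV against H/R, against 2291 and 2641. No called gene changed direction under any of these alternatives. Of the genes called after H/R, Anln, Bub1b, Ccna2, Cdc20, Mki67 and Racgap1 were called under all 19 alternatives, and Melk and Spc25 under all 18 in which they were tested.

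With the replicate number as a block the counts were 16 lower after H/R, 0 in EGR1OV against Sham and 9 higher in EGR1OV than in H/R. Deviations of same-numbered libraries were weakly correlated (-0.021 to 0.062). In 8 of 18 comparisons of a library with another group, the best correlation was with its own number. These values do not settle whether same-numbered libraries shared a culture or batch, which is not given. Depth limits the lowest genes, such as Nek2, whose SE was 0.11.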

Other observations

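Within groups, the number of the 39 genes above their group mean differed by library. In Sham, 32 of the 39 lay above their group mean in replicate 3, 22 in replicate 2 and 9 in replicate 1, with median log2 deviations of 0.039, 0.0088 and -0.035. In H/R the numbers were 24, 25 and 14 in replicates 1 to 3, and in EGR1OV 21, 14 and 24. Single genes departed further, the widest being Nek2, which deviated from the H/R mean by 0.18 in replicate 1 and -0.21 in replicate 3, and Birc5, which deviated by 0.18 and -0.16 in the same libraries.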
